A study of Mus musculus with 5 samples.

Results

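The BMP and GDF ligands described here are 10 genes, Bmp2, Bmp3, Bmp4, Bmp5, Bmp6, Bmp7, Bmp8a, Gdf5, Gdf6 and Gdf10, taken by name from the 29818 genes of the count matrices, and all 10 were found. Cells were released from the knee cartilage of 5 littermate pups, 2 of them WT (pups 1 and 2) and 3 mutant (pups 3, 4 and 5), whose age is postnatal day 5 in the sample labels and day 3 in the series design. The strain label is C57BL/6J, whereas the methods of the study give the Col2a1-Cre line a part B6SJLF1 origin with later crosses to C57BL/6J. Mutant pups were heterozygous for a conditional knock-in of the p.R594H substitution in Trpv4, the gene of a calcium-permeable channel. The allele was switched on by Col2a1-Cre, which acts in cells that make type II collagen and in their descendants, so other cells of these pups need not express it. The sample labels of the WT pups give no Cre or allele status beyond wild type. Each pup was 1 library of the BD Rhapsody system, in which every counted transcript carries a unique molecular identifier (UMI).

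Bone morphogenetic proteins and growth and differentiation factors are secreted signals of the TGF-β superfamily that bind type I and type II serine/threonine kinase receptors and signal through Smad proteins. In the skeleton they act in the condensation of mesenchyme, in the proliferation and maturation of chondrocytes and in the formation of joints. Bmp2 and Bmp4 are close relatives, Bmp5, Bmp6, Bmp7 and Bmp8a form another subgroup, Gdf5 and Gdf6 yet another, and Bmp3 and Gdf10 (also called BMP3b) stand apart as ligands that can restrain osteogenic BMP signalling.

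Of 84382 cells in the matrices, 82516 passed the filters. The libraries held 117746735 to 183322632 UMIs, and median depth per cell was 8521 and 9261 UMIs in the WT pups and 6000 to 7016 in the mutant pups, so depth moved with the label. Xist was found in 89.8% and 88.4% of the cells of mutant pups 3 and 4 and in at most 0.174% of the cells of any other pup, whereas the Y-linked Ddx3y was found in 66.3% to 70.1% of the cells of pups 1, 2 and 5. Sex thus differed within the mutant group and between most mutant and WT pups. A substitution cannot be read from gene counts. Trpv4 had 160 and 102 CPM in the WT pups and 90.3, 148 and 175 CPM in the mutant pups, with overlap. The level of Trpv4 thus does not check the labels, and every direction below rests on them. Pairs of libraries shared 3 to 7 cell barcodes. Clusters were formed without the ligand genes and 44 of 54 were named from marker genes. The labels call the cells chondrocytes, but 40459 cells (49%) fell into the 6 chondrocyte classes. In all, 23 classes or unnamed clusters had at least 10 cells in every pup.

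A UMI of Bmp2 was found in 41% of all cells, of Bmp5 in 38.5%, of Gdf10 in 30.9% and of Bmp6 in 23.7%. Bmp4 was found in 11.9%, Bmp7 in 10.6%, Gdf5 in 7.80% and Bmp3 in 5.66%. Bmp8a, with 884 UMIs in the 5 pups together, and Gdf6, with 295, were rare. Levels are given as CPM, the UMIs of the gene scaled to a common total of UMIs for a class in each pup, and means are over the 5 pups with their SD. Macrophages, granulocytes and erythroid cells served as the level that free RNA can give. Their pooled levels reached 106 CPM for Bmp2 and 109.8 CPM for Gdf10, but no more than 10.9 CPM for Bmp4 and 0.842 CPM for Gdf6, and a class within that range was not read as expressing the gene. For Bmp2 the macrophage clusters were uneven, with 122 ± 65.3 CPM in cluster 33 and 28.4 ± 21 CPM in cluster 36 (SD, n = 5 pups), so the upper end of its range rests on cluster 33, and erythroid cells pooled to 84.2 CPM. Levels between classes are a description, with no test. More RNA of a gene per cell and more cells that use it cannot be told apart in a class sum.

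Bmp2, an osteogenic ligand that acts in chondrocyte maturation, was high in the Col10a1-positive hypertrophic chondrocytes and also in the resting and articular cells at the other end of the cartilage. Hypertrophic chondrocytes had 233 and 312 CPM in the WT pups and 267, 449 and 573 CPM in the mutant pups. The labels overlapped, and the pups spread widely, with pup 5 the highest. This class is cluster 30 alone, whose markers scored 2.53 for hypertrophic and 2.58 for prehypertrophic chondrocytes, in SD over clusters, and whose leading genes hold Ihh, Pth1r and Panx3 beside Col10a1 and Alpl. A cluster of 757 cells that received no name (cluster 31), led by Mmp13 and Spp1, had 453 and 462 CPM in the WT pups and 340.4, 458 and 401 CPM in the mutant pups. Its mean of 423 ± 52.3 CPM was above that of hypertrophic chondrocytes in 4 of 5 pups, with overlap. Resting chondrocytes, the reserve cells of the growth plate, had 206 ± 43.2 CPM and held 32.2% of all Bmp2 UMIs. They were 18353 of the 82516 cells kept. The Prg4-positive articular class was uneven. Its clusters 26 and 38, led by Cilp, Vit and Cyfip2, reached 449 ± 54.9 CPM and 420.3 ± 53.8 CPM, against 184 ± 16 CPM for the class. When every cell was thinned to 2000 UMIs, 40.7% ± 10.7 of hypertrophic chondrocytes had a UMI of Bmp2, against 90.0% before thinning. Of thinned macrophages 8.71% had one, and of thinned erythroid cells 11.5%. Median depth was 29019 UMIs in hypertrophic chondrocytes and 7509 in macrophages.

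Bmp4, the closest relative of Bmp2, was found outside the growth plate columns. Fibroblasts or synovial progenitors had 66.9 and 79.9 CPM in the WT pups and 76.8, 60.6 and 85 CPM in the mutant pups. The 5 pups lay close together and the labels overlapped. Within this class cluster 28, 956 cells led by Htra4, Tspan15 and Clic5, had 172 and 188 CPM in the WT pups and 167, 156 and 175 CPM in the mutant pups. Every pup of cluster 28 lay above every pup of cluster 22, which followed in the same class with 66.4 ± 11 CPM. Skeletal muscle lineage cells had 61.1 ± 26.5 CPM and overlapped with fibroblasts or synovial progenitors. In prehypertrophic and hypertrophic chondrocytes 0.314% and 0.390% of thinned cells had a UMI, no more than the 1.13% of macrophages, while 12% of fibroblasts or synovial progenitors had one.

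**Figure D1:**
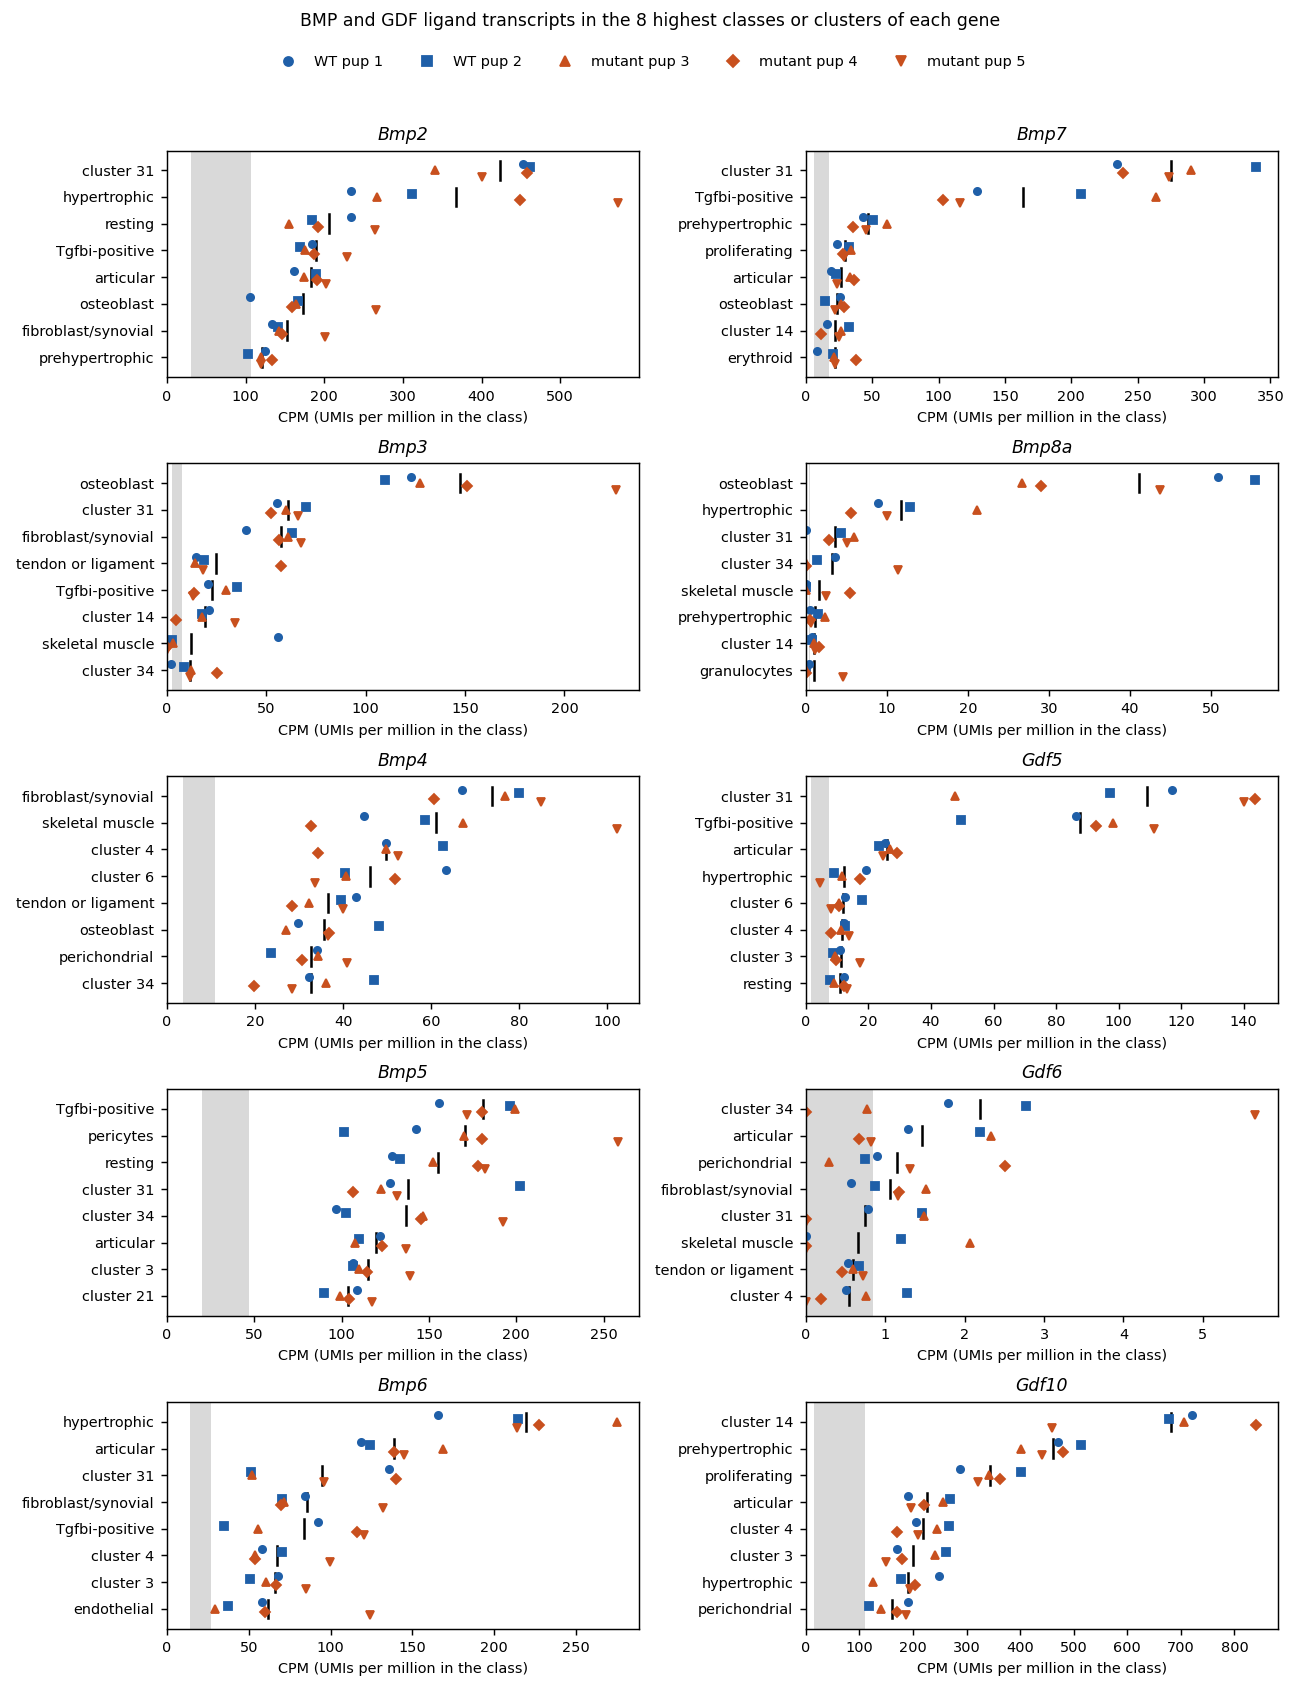
Level of each ligand gene (x axis, CPM in the class sum) in its 8 highest classes or unnamed clusters (y axis), with 1 point per pup, a bar at the mean of the 5 pups and a grey band over the pooled levels of macrophages, granulocytes and erythroid cells. Bmp3 and Bmp8a are highest in osteoblast lineage cells, Bmp7 and Gdf5 in cluster 31 and Tgfbi-positive chondrocytes, and most points of Gdf6 lie in or near the grey band.

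Bmp5, the gene altered in short-ear mice, was spread over cartilage, vessel walls and other tissue. Unnamed cluster 34 (137 CPM), perichondrial cells (87.3 CPM) and tendon or ligament cells (63.1 CPM) also had means over the pooled background of 46.8 CPM. Tgfbi-positive chondrocytes had 156 and 196 CPM in the WT pups and 199, 180.2 and 171 CPM in the mutant pups. Pericytes, the mural cells of small vessels, had 143 and 101 CPM in the WT pups and 170.2, 180.2 and 258 CPM in the mutant pups, and resting chondrocytes had 129 and 133 CPM in the WT pups and 153, 178 and 182 CPM in the mutant pups. These 3 classes overlapped. Resting chondrocytes, 18353 of the 82516 cells kept, held 36.1% of all Bmp5 UMIs. Pericyte cluster 40, led by Rgs5, Abcc9 and Notch3, reached 229 ± 50.1 CPM, and resting cluster 5, led by Wfdc2 and Notum, had 208 ± 11.4 CPM. Thinned cells with a UMI of Bmp5 went from 24.9% ± 2.91 of resting and 16.3% of proliferating to 6.99% of prehypertrophic and 3.01% of hypertrophic chondrocytes. The last 2 values were no higher than the 10.4% of erythroid cells.

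Bmp6, also known for its part in iron control, was high in hypertrophic and articular chondrocytes. Hypertrophic chondrocytes had 165 and 215 CPM in the WT pups and 275, 227 and 214 CPM in the mutant pups, and articular chondrocytes had 118 and 124 CPM in the WT pups and 168, 139 and 145 CPM in the mutant pups. Hypertrophic chondrocytes were higher in 5 of 5 pups, although the ranges over pups overlapped. At the level of clusters, articular cluster 26 had 382 ± 42.5 CPM and cluster 28 of the fibroblasts or synovial progenitors had 292 ± 72.8 CPM, both with means above the 219 ± 39.2 CPM of hypertrophic chondrocytes. Of thinned prehypertrophic chondrocytes 4.91% had a UMI of Bmp6, against 31.7% of hypertrophic chondrocytes and 6.75% of erythroid cells.

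Bmp7, a ligand of kidney, eye and skeletal development, was concentrated in a few groups. Cluster 31 had 235 and 339 CPM in the WT pups and 290.4, 239 and 274 CPM in the mutant pups, and Tgfbi-positive chondrocytes had 129 and 207 CPM in the WT pups and 264, 103 and 116 CPM in the mutant pups. Cluster 31 was higher in 5 of 5 pups, with overlap of the ranges. Among the classes and unnamed clusters, prehypertrophic chondrocytes followed at 47 ± 9.43 CPM with no overlap. Single clusters of other classes had higher pooled levels, 77.3 CPM in articular cluster 38, 67.0 CPM in articular cluster 26 and 57.0 CPM in resting cluster 23. Tgfbi-positive and prehypertrophic chondrocytes, 2651 and 4078 of the 82516 cells kept, held 21.8% and 22.2% of all Bmp7 UMIs. Bmp7 was a leading gene of both cluster 31 and the Tgfbi-positive cluster although neither was formed with it, and Loxl4, the gene most like Bmp7 over clusters, also led the latter.

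Bmp8a was measured at low counts. Osteoblast lineage cells, 275 cells led by Ibsp and Dmp1, had 50.9 and 55.5 CPM in the WT pups and 26.7, 29 and 43.8 CPM in the mutant pups. With 15 and 50 cells in the WT pups and 153, 40 and 17 in the mutant pups, the labels were not compared in this class. Hypertrophic chondrocytes had 8.91 and 12.9 CPM in the WT pups and 21.1, 5.54 and 10.1 CPM in the mutant pups, lower in 5 of 5 pups with no overlap, yet they held 35.4% of all Bmp8a UMIs. The background classes pooled to 0.337 to 0.555 CPM. How UMIs shared with the near-identical gene Bmp8b were counted is not given in the sources used here, so the level of Bmp8a alone is uncertain.

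**Figure D2:**
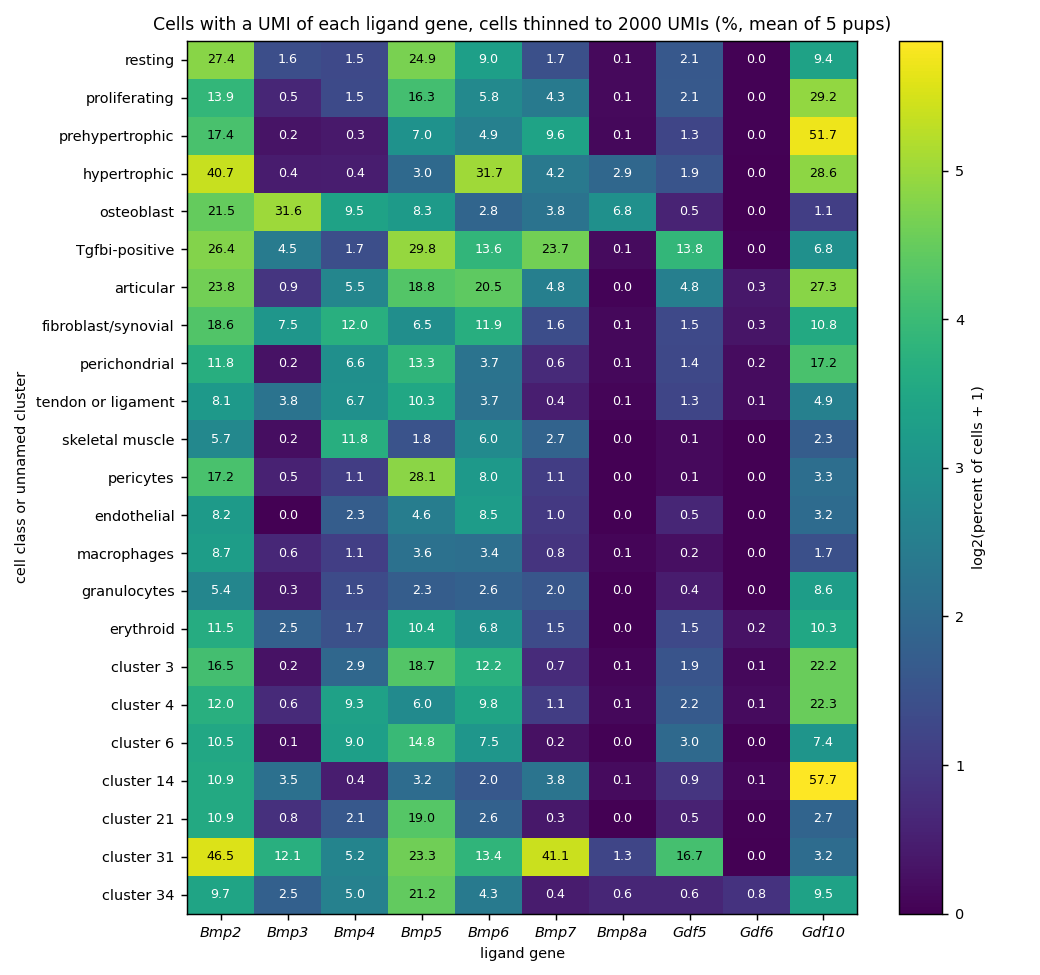
Percent of cells with a UMI of each ligand gene (x axis) in each class or unnamed cluster (y axis) after every cell was thinned to 2000 UMIs, as the mean of 5 pups, with colour on a log2(percent + 1) scale. From resting to prehypertrophic chondrocytes Gdf10 goes from 9.4 to 51.7 and Bmp5 from 24.9 to 7.0, and macrophages, granulocytes and erythroid cells show the level that free RNA can give.

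Gdf5, a ligand needed for joint formation, was highest in cluster 31 and Tgfbi-positive chondrocytes. Cluster 31 had 117 and 97.2 CPM in the WT pups and 47.8, 144 and 139.9 CPM in the mutant pups, and Tgfbi-positive chondrocytes had 86.2 and 49.7 CPM in the WT pups and 98.3, 92.7 and 111 CPM in the mutant pups. These ranges overlapped. Articular chondrocytes followed at 25.9 ± 2.32 CPM, below Tgfbi-positive chondrocytes in 5 of 5 pups with no overlap, and among their clusters cluster 26 reached 64.1 ± 12 CPM and cluster 38 42.5 ± 14.2 CPM. Gdf5 was also a leading gene of the Tgfbi-positive cluster.

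Gdf6, a second ligand of joints, had 97 of its 295 UMIs in articular chondrocytes. The highest level was in cluster 45 of that class, 172 cells led by Msmp, Stc1 and Bpifb1, with 54.9 and 70.3 CPM in the WT pups and 44.4, 8.96 and 14 CPM in the mutant pups. These levels rest on few UMIs, since the cluster had 24 to 47 cells per pup and 14.0% of its cells had a UMI of Gdf6, and the labels were not compared in it. Articular chondrocytes as a whole had 1.46 ± 0.770 CPM, and 4 of 23 classes or clusters had a mean above the background classes.

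Bmp3, a negative regulator of bone mass, was highest among named classes in osteoblast lineage cells, which had 123 and 109.9 CPM in the WT pups and 127, 151 and 226 CPM in the mutant pups. The labels were not compared in this class, which had 15 to 153 cells per pup, or in cluster 28. Cluster 31 (60.7 ± 7.34 CPM) and fibroblasts or synovial progenitors (57.4 ± 10.6 CPM) followed, cluster 31 with no overlap with the osteoblast lineage. Cluster 28 had 177 and 163 CPM in the WT pups and 203, 206 and 212 CPM in the mutant pups, so this cluster held high levels of Bmp2 (432 ± 79.8 CPM), Bmp3, Bmp4 and Bmp6. Tendon or ligament cells had 14.7 and 18.9 CPM in the WT pups and 14.3, 57.3 and 18.2 CPM in the mutant pups, and mutant pup 4 stood apart there.

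Among named classes Gdf10 was highest in the middle of the growth plate, but it was not limited to it. Prehypertrophic chondrocytes had 471 and 513 CPM in the WT pups and 401, 479 and 441 CPM in the mutant pups, and proliferating chondrocytes had 289 and 401 CPM in the WT pups and 342, 362 and 322 CPM in the mutant pups. Prehypertrophic chondrocytes were higher in 5 of 5 pups, and the 2 ranges met without overlap. Unnamed cluster 14, 2286 cells led by H2ac6, Sfrp5 and H2-Ab1, had 721 and 677 CPM in the WT pups and 706, 839 and 460.1 CPM in the mutant pups. Within the proliferating class cluster 24, led by the mitotic genes Ccnb1, Pbk and Nek2, had 529 ± 40.0 CPM. Articular chondrocytes (226.5 CPM), unnamed clusters 4 (219 CPM) and 3 (200.4 CPM), hypertrophic chondrocytes (189.8 CPM) and perichondrial cells (161 CPM) had lower means, each over the pooled background of 109.8 CPM, although the mean of the pups for erythroid cells was 147 CPM. Of thinned resting chondrocytes 9.43% had a UMI, whereas 51.7% of prehypertrophic, 28.6% of hypertrophic and 27.3% of articular chondrocytes had one. The background was uneven, with 10.3% of erythroid cells, 8.61% of granulocytes and 1.71% of macrophages. Erythroid cluster 41 had a pooled 150 CPM and erythroid cluster 43 44.6 CPM. Resting clusters 16 and 23 had the highest pooled levels of their class, 113 and 108 CPM. How much of the resting level is free RNA was not tested.

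The promoters of Gdf10 and Bmp6 are shown because these genes differed between the prehypertrophic and hypertrophic classes. Of thinned prehypertrophic chondrocytes 51.7% had a UMI of Gdf10 and 4.91% one of Bmp6, whereas the shares in hypertrophic chondrocytes were 28.6% and 31.7%. RefSeq promoter windows of build GRCm38.p6, from 250 bases before to 50 after the start of a gene, held 5 of the 10 genes (Bmp4, Bmp5, Bmp6, Bmp8a and Gdf10). Both genes lie on the plus strand. The window of Gdf10 is chr14:33923337-33923636 and that of Bmp6 is chr13:38345466-38345765. In the GENCODE annotation Gdf10 starts at 33923587, within its window, but Bmp6 starts at 38345107, upstream of its window. Capitals mark the GC box, the letters GGGCGG or, on the other strand, CCGCCC, which Sp-family factors bind.
Gdf10: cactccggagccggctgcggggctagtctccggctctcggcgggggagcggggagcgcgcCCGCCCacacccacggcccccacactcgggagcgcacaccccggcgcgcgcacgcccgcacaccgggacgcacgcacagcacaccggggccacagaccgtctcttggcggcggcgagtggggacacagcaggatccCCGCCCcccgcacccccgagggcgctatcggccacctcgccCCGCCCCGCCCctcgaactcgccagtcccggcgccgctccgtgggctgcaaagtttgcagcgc
Bmp6: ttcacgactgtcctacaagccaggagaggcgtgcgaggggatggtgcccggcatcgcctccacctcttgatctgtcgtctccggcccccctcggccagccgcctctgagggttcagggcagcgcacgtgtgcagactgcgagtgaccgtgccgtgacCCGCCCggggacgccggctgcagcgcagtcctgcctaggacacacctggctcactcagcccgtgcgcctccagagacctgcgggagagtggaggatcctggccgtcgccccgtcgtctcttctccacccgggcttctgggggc
The Gdf10 window held 4 GC boxes and 77.3% G or C, and the Bmp6 window held 1 GC box and 69.3%. Of all 32851 windows, 35.7% held a GC box, as did 4 of the 5 windows of ligand genes, all but that of Bmp5. The TATA box, TATAAA on either strand, was in 13.6% of all windows and in 0 of these 5. A match of letters is not a bound site.

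Over the 54 clusters, the genes with levels most like those of each ligand gene were named by Pearson's r of log2(CPM + 5). These values describe likeness only, since all clusters share the 5 libraries and clusters of one class resemble each other. For Bmp2 they were Yipf4 (0.79), Cd109 (0.79) and Fndc3b (0.78), and for Bmp4 Glis2 (0.83), Robo1 (0.83) and Frmd6 (0.81). For Bmp5 they were Tspan6 (0.82), Igf2r (0.81) and Dnm3os (0.79), for Bmp6 Disp1 (0.79), Stk38l (0.76) and Tmbim1 (0.76) and for Bmp7 Loxl4 (0.73), Rflna (0.70) and Fam89a (0.68). For Bmp8a they were Irx5 (0.93), Dmp1 (0.88) and Fabp3 (0.84), of which Dmp1 is a gene of osteocytes. For Gdf5 they were Fzd9 (0.80), Crim1 (0.79) and Twsg1 (0.78), of which Crim1 and Twsg1 encode BMP-binding proteins, and for Gdf6 Msmp (0.91) and Pla2g2a (0.90). The values for Gdf6 rest largely on cluster 45, led by Msmp. Its pooled Gdf6 level was 39.6 CPM, against 6.00 CPM in cluster 38, the next highest. For Bmp3 the values were lower, with Lpar3 (0.62), Cdh4 (0.57) and Adgrd1 (0.57), and for Gdf10 the genes were Prelp (0.82), Ak4 (0.76) and Rab28 (0.75), of which Prelp encodes a cartilage matrix protein. Among the ligand genes themselves the highest values were those of Bmp6 and Gdf5 (0.74), Bmp2 and Gdf5 (0.70) and Bmp2 and Bmp6 (0.62).

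Several ligand genes were found in the same cells. Of thinned cells of cluster 31, 51.6% ± 2.72 (SD, n = 5 pups) had UMIs of at least 2 ligand genes and 23.4% ± 4.33 of at least 3. At least 2 were found in 34.5% of Tgfbi-positive, 34.1% of hypertrophic, 28.7% of articular and 17% of resting chondrocytes, and of the background classes in 1.73% of macrophages, 3.09% of granulocytes and 10.0% of erythroid cells, which ranged from 3.46% to 20.4% over the pups. Among fibroblasts or synovial progenitors Bmp6 was found in 40.4% ± 11.6 of the cells with Bmp3 and in 9.61% ± 1.82 of those without, higher with Bmp3 in 5 of 5 pups. In cluster 31 Gdf5 was found in 38.9% ± 16.4 of the cells with Bmp6 and in 14.1% ± 5.67 of those without, and in hypertrophic chondrocytes Bmp6 in 40.9% ± 8.25 with Bmp2 and 24.9% ± 6.39 without, each higher in 5 of 5 pups. Cluster 28 held both Bmp3 and Bmp6, and its part in the first of these differences was not tested. Other pairs went the other way. In proliferating chondrocytes Gdf10 was found in 13.6% ± 4.90 of the cells with Bmp5 and in 32.2% ± 4.39 of those without, and in cluster 31 Bmp7 in 25.6% ± 7.06 with Bmp6 and 43.7% ± 2.14 without, each lower in 5 of 5 pups. These pairs were also chosen for their difference. The proliferating class joins cluster 15, with 136 ± 23.8 CPM of Bmp5 and 94.3 ± 34.4 CPM of Gdf10, and cluster 24, with 34.8 ± 9.78 CPM and 529 ± 40.0 CPM, and the part of this mixture in the first of them was not tested.

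**Figure D3:**
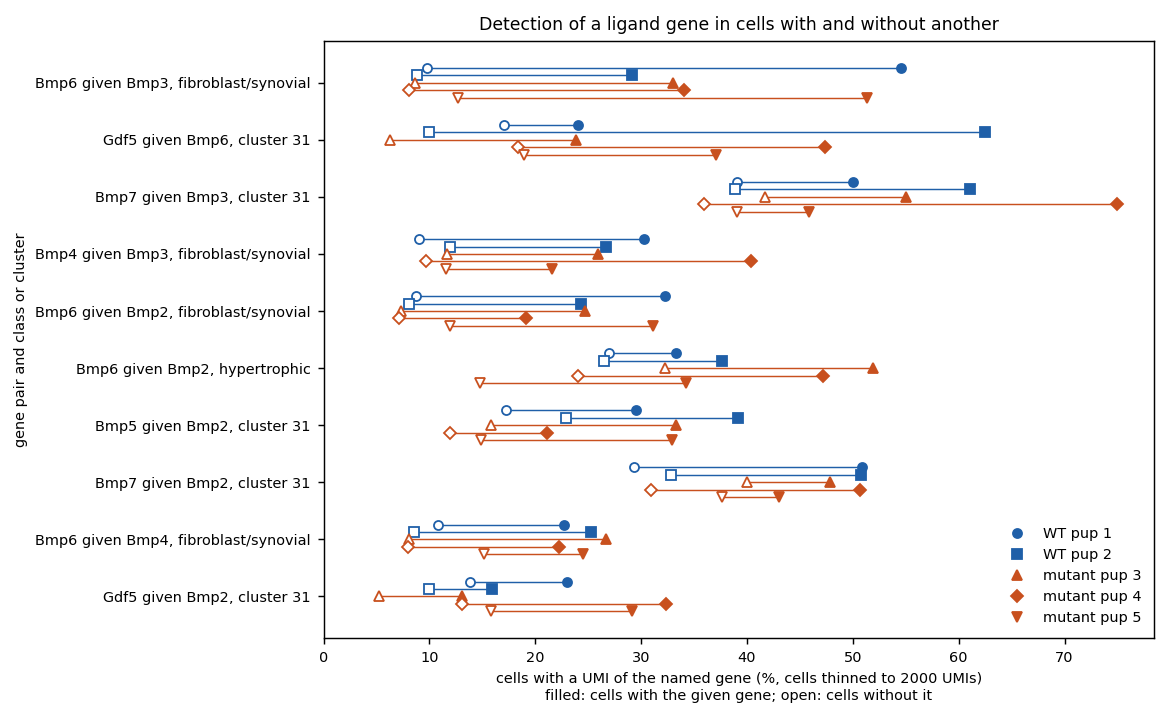
Percent of thinned cells with a UMI of one ligand gene (x axis) among cells with a second gene (filled) and without it (open), for the 10 pairs of genes and classes or clusters with the largest positive mean difference (y axis), with 1 line per pup. In each of these 10, chosen because the share was higher with the second gene on average, it was higher in cells with the second gene in all 5 pups.

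The study asked what an activated Trpv4 changes in growth plate cells, and the ligand genes were compared between mutant and WT pups in all cells and in 7 classes. From here on, CPM of the compared classes are after normalisation between pups unless stated, so they differ from the class levels above. CPM of single clusters and of background ranges are not normalised. No ligand gene passed an adjusted p of 0.05 in edgeR's quasi-likelihood test in any of the 8 comparisons. The share of all genes called was also 0% in each, of 21024 genes in all cells and of 10586 to 15899 in the classes. Unadjusted p-values under 0.05 were given by edgeR to 1169 genes in all cells and to 1596 in resting chondrocytes, and to 362 to 920 in the other classes. DESeq2 called 48 genes in all cells, 164 (1.03%) in resting chondrocytes and 0 to 8 in each other class. Of 69 effects on ligand genes that could be tested, 60 had a 95% interval that included 0. The median log2 fold change of the 10 ligand genes in all cells was 0.18, against -0.02 over all genes.

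**Figure D4:**
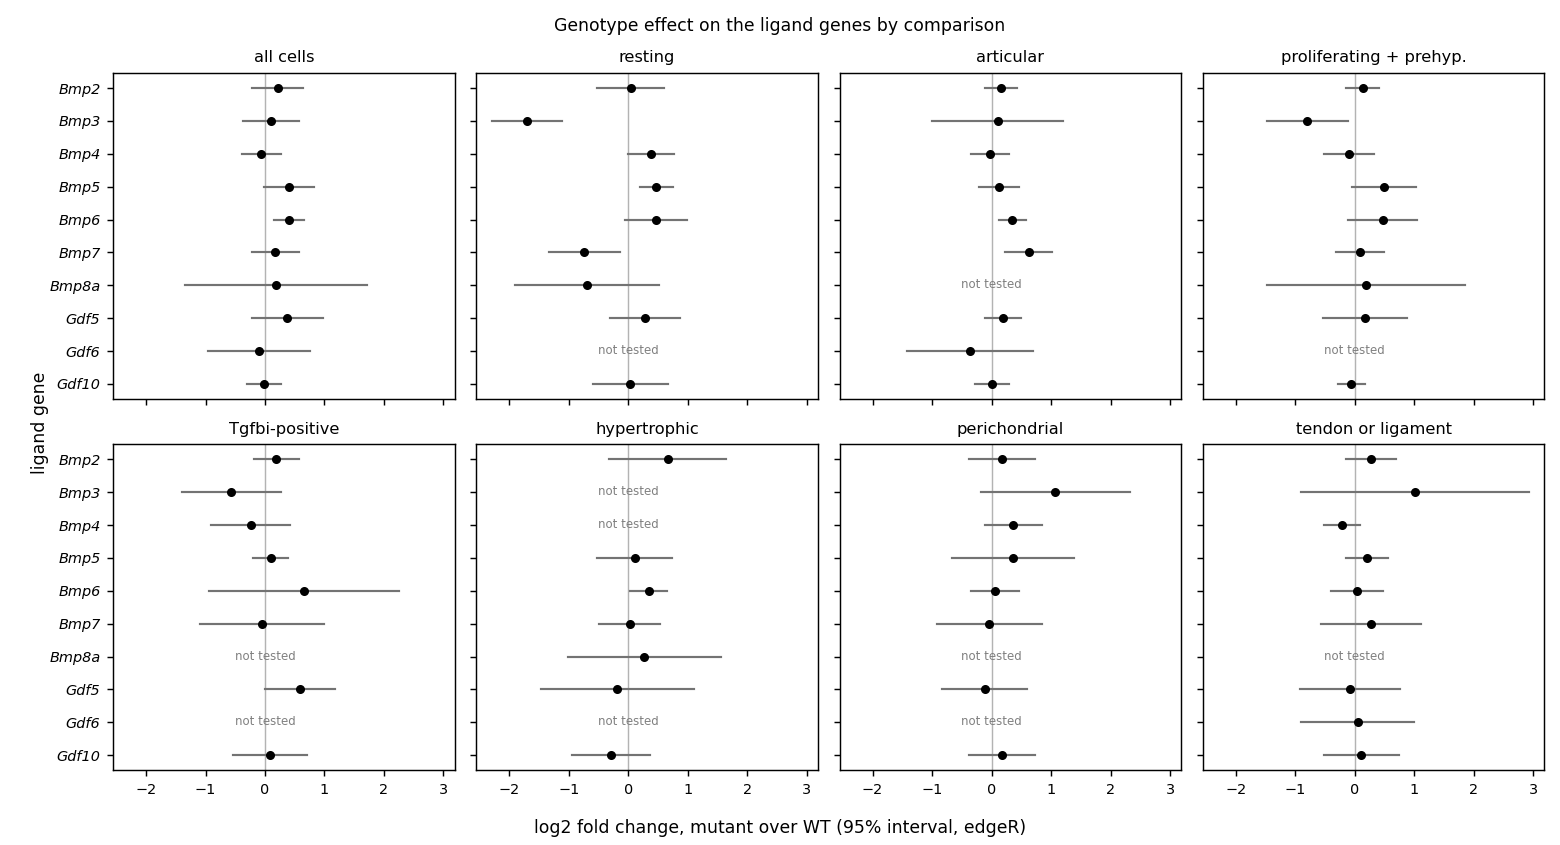
Log2 fold change of each ligand gene, mutant over WT (x axis), with its 95% interval from edgeR, by gene (y axis) in all cells and 7 classes, with genes under the count filter marked as not tested. Bmp3 in resting chondrocytes lies at -1.70 (-2.29 to -1.11), and 60 of 69 intervals include 0.

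Bmp3 in resting chondrocytes had 21 and 16.5 CPM in the WT pups and 5.51, 3.90 and 7.84 CPM in the mutant pups after normalisation, from 788 and 582 UMIs against 145, 102 and 225. All 3 mutant pups lay below both WT pups, at or near the background range of 2.70 to 7.41 CPM. The log2 fold change was -1.70 ± 0.25 (SE), with an adjusted p of 0.152 in edgeR and of 5.31e-07 in DESeq2. Without mutant pup 5 it was -1.99, with an adjusted p of 0.0399 in edgeR, and without the Xist-positive pups 3 and 4 it was -1.25 (adjusted p = 0.0920 in edgeR). Other cluster settings gave -1.17 to -1.04. WT and mutant pups were fully separated for 4 of the 9 ligand genes tested in this class, and 28% of all genes tested there did not overlap.

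Bmp5 and Bmp4 were the genes without overlap that were higher in the mutant pups of this class, and Bmp7 was lower. Bmp4 had 6.25 and 5.67 CPM in the WT pups and 8.62, 8.26 and 6.34 CPM in the mutant pups (0.38 ± 0.17 log2 units, SE, adjusted p = 0.507 in edgeR), within its background range. Bmp5 had 128 and 125 CPM in the WT pups and 151, 188 and 187 CPM in the mutant pups (log2 fold change 0.47 ± 0.12, SE, adjusted p = 0.289 in edgeR and 0.0460 in DESeq2). Bmp7 had 10.8 and 20.6 CPM in the WT pups and 9.76, 10.3 and 8.16 CPM in the mutant pups (-0.74 ± 0.26, adjusted p = 0.421 in edgeR), within its background range of 5.83 to 17.2 CPM in 4 of 5 pups. WT pup 2 was the highest for Bmp7, and without it the log2 fold change was -0.20.

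The make-up of the resting class moved with these values. Cluster 23, led by Arc, Plet1 and Epcam, was 13.5% and 19.8% of the resting chondrocytes of the WT pups and 5.07%, 1.54% and 2.83% of those of the mutant pups. Like those of resting clusters 0, 8 and 29, its markers leaned to another class. Its mean marker score was 1.5 for proliferating and 1.19 for resting chondrocytes, in SD over clusters. It held 1 resting marker, Sfrp5, among its 10 leading genes. Its Bmp7 levels were 38.7 and 68.7 CPM in the WT pups and 61.8, 76.8 and 52.7 CPM in the mutant pups, with overlap of the labels, while the other 6 resting clusters had 1.61 to 14.5 CPM over the pups with at least 10 cells. With cluster 23 left out, Bmp7 in the class had 5.03 and 5.63 CPM in the WT pups and 5.87, 7.99 and 6.11 CPM in the mutant pups before normalisation. The direction turned to a log2 fold change of 0.39 ± 0.19 (SE, adjusted p = 0.874 in edgeR). Bmp3 kept its direction, with 11.7 and 11.1 CPM in the WT pups and 5.05, 3.71 and 6.57 CPM in the mutant pups before normalisation. Its log2 fold change was -1.10 ± 0.21 (adjusted p = 0.723 in edgeR). Cluster 23 also had the highest mean level of Bmp3, with 66.2 and 36.1 CPM in the WT pups and 12.4, 2.84 and 33.7 CPM in the mutant pups, against means of 1.34 to 13.3 CPM in the other 6 clusters. Its mean level of Bmp5 was the lowest, 67.4 ± 15.9 CPM against 119 to 208 CPM. With cluster 23 left out, Bmp5 had 141 and 161 CPM in the WT pups and 160.4, 180.3 and 186 CPM in the mutant pups before normalisation. On that scale WT pup 2 lay just above mutant pup 3. Overlap after normalisation, the scale of the separation given above, is not given here for this gene. Its log2 fold change was 0.28 ± 0.11 (adjusted p = 0.874 in edgeR). Bmp4 then had 7.22 and 7.67 CPM in the WT pups and 9.35, 8.02 and 6.29 CPM in the mutant pups before normalisation, with overlap of the labels. Other clusters moved with the label too. Cluster 5 was 12.98% and 14.82% of the whole class in the WT pups and 19.94%, 22.34% and 27.93% in the mutant pups. Cluster 0 was 22.42% and 20.56% in the WT pups and 28.72%, 28.76% and 26.17% in the mutant pups. Their pooled Bmp5 levels, 207 CPM and 181 CPM, were the highest of the resting clusters. The part of clusters 5 and 0 in the values with and without cluster 23 was not tested.

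**Figure D5:**
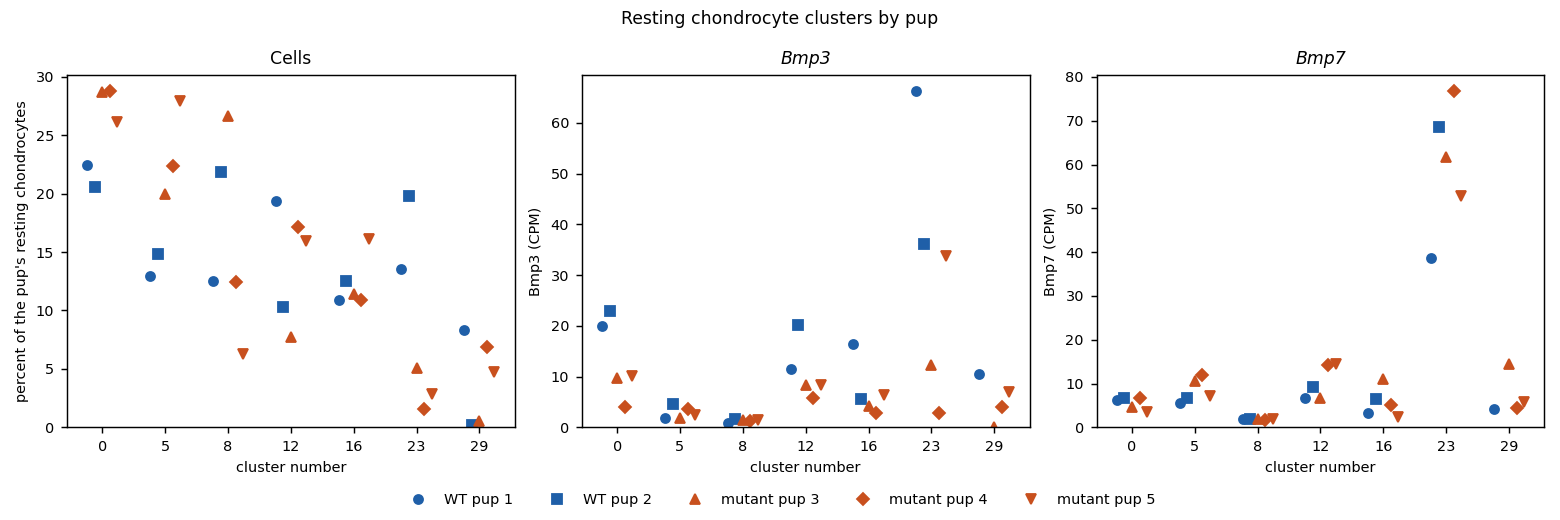
Share of each pup's resting chondrocytes (left, percent) and levels of Bmp3 (middle, CPM) and Bmp7 (right, CPM) in the 7 resting clusters (x axis), with 1 point per pup and no level for a pup with under 10 cells. Cluster 23 makes up 13.5% and 19.8% of the class in the WT pups and 1.54% to 5.07% in the mutant pups, and it has the highest Bmp7 levels of the class in every pup.

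In articular chondrocytes Bmp6 and Bmp7 were higher in every mutant pup than in both WT pups. Bmp6 had 123 and 116 CPM in the WT pups and 159, 147 and 150.1 CPM in the mutant pups after normalisation (log2 fold change 0.35 ± 0.10, SE, adjusted p = 0.727 in edgeR). Bmp7 had 19.3 and 21.2 CPM in the WT pups and 31.4, 38.3 and 24.1 CPM in the mutant pups (0.62 ± 0.18, adjusted p = 0.727 in edgeR). These were 2 of the 9 ligand genes tested, near the 23.6% of all genes without overlap. Without the Xist-positive pups 3 and 4, Bmp7 differed by 0.25 and Bmp6 by 0.33. The make-up of this class moved with the label as well. Cluster 19, whose markers scored 0.856 for articular and 1.00 for resting chondrocytes, was 26.2% and 18.1% of the articular chondrocytes of the WT pups and 15%, 16.7% and 15.7% of those of the mutant pups. It had 67.7 ± 5.38 CPM of Bmp6 and 14.1 ± 5.06 CPM of Bmp7, below the class, and its part in these values was not tested. Cluster 1 was a larger share of the class in the mutant pups (40%, 48.5% and 43.7%) than in the WT pups (36.5% and 36.1%). Its pooled levels, 118 CPM of Bmp6 and 17.1 CPM of Bmp7, were also below the class, and its part was not tested. The effect on Bmp7 differed between articular and resting chondrocytes by 1.31 ± 0.38 log2 units (SE), with an unadjusted p of 0.00287 and an adjusted p of 1 in edgeR over 15986 genes. The levels of Bmp7 in resting chondrocytes lay mostly in the background range, and the value includes cluster 23, without which the effect in resting chondrocytes was 0.39 against 0.62 in articular chondrocytes. Of 210 such differences, 10 genes in 21 pairs of classes, 0 passed in edgeR or limma-voom, and 8 had an unadjusted p under 0.05 in edgeR. That count was 21 without mutant pup 3, 6 to 11 without each other pup and 11 in limma-voom. Over all genes and pairs edgeR called 5 of 335706 differences (0.00149%).

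In all cells Bmp6 was the 1 ligand gene of 10 without overlap, where 22.5% of all genes had none. It had 51.8 and 42.2 CPM in the WT pups and 61, 62.1 and 62.4 CPM in the mutant pups (log2 fold change 0.40 ± 0.10, SE, adjusted p = 0.841 in edgeR). In hypertrophic chondrocytes, with 65 to 289 cells per pup, Bmp6 differed by 0.34 ± 0.14 (adjusted p = 1.000 in edgeR) and by 0.21 without pups 3 and 4. In Tgfbi-positive chondrocytes Gdf5 was the 1 of 8 without overlap, against 18% of all genes. It had 89 and 47.3 CPM in the WT pups and 93.8, 97 and 116 CPM in the mutant pups (0.59 ± 0.25, adjusted p = 0.997 in edgeR), and without WT pup 2 the difference was 0.20. In proliferating and prehypertrophic chondrocytes Bmp3 had 3.80 and 2.32 CPM in the WT pups and 2.24, 1.74 and 1.30 CPM in the mutant pups, all within or under its background range, and differed by -0.80 ± 0.30 (adjusted p = 0.855 in edgeR). Gdf10 differed there by -0.06, with a 95% interval of -0.29 to 0.17, and Bmp2 by 0.14 (-0.14 to 0.41). Bmp7 had 35.2 and 41.6 CPM in the WT pups and 50.5, 33.3 and 39 CPM in the mutant pups there, with overlap, and differed by 0.09 (-0.31 to 0.49, adjusted p = 0.952 in edgeR). The paper reports reduced Bmp7 in proliferating chondrocytes, over clusters that included early proliferative and prehypertrophic cells. Its figure legend places the decrease in some or all of these subsets, and its single-cell data were compared with the Seurat package. Here UMIs were summed per pup over the joined class, and its subsets were not tested separately. The values above are thus no direct check of that result. The class tested here left out unnamed cluster 14, whose markers scored highest for proliferating chondrocytes (1.68), so the cells compared may differ. For Bmp2 in hypertrophic chondrocytes the interval was wide, -0.33 to 1.65. Perichondrial cells and tendon or ligament cells had no ligand gene with an unadjusted p under 0.05.

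Of 45 other genes of the pathway, 25 to 41 could be tested in a comparison and 0 passed in any. In resting chondrocytes 9 of 35 had an unadjusted p under 0.05, 5 higher and 4 lower in the mutant pups, where 1596 of all 15899 genes tested had one. Acvr1, a type I receptor, Nog, the gene of the antagonist noggin, and Id1, a target of BMP Smads, are given as examples chosen after their values were seen. Acvr1 had 57.9 and 60.5 CPM in the WT pups and 86.3, 86.3 and 93.1 CPM in the mutant pups in that class (log2 fold change 0.58 ± 0.09, SE, adjusted p = 0.152 in edgeR). Nog had 15 and 12.1 CPM in the WT pups and 6.87, 6.62 and 8.82 CPM in the mutant pups (-0.86 ± 0.16, adjusted p = 0.213), and Id1 had 58.8 and 77.1 CPM in the WT pups and 40.7, 50.3 and 42.9 CPM in the mutant pups (-0.61 ± 0.14, adjusted p = 0.262), both from edgeR. Antagonists were on both sides, since Fstl3 (log2 fold change -0.56) was also among the 4 lower genes and Chrd (0.46) and Fstl1 (0.30) were among the 5 higher ones. With cluster 23 left out of the class, 3 of 35 had an unadjusted p under 0.05 in edgeR, 2 higher and 1 lower, as did 848 of all 15498 genes tested. Acvr1 then had 64.3 and 70.1 CPM in the WT pups and 89.5, 87 and 95.1 CPM in the mutant pups, still without overlap (0.43 ± 0.09, adjusted p = 0.874 in edgeR). The labels overlapped for Nog (-0.34 ± 0.19) and Id1 (-0.19 ± 0.16). In tendon or ligament cells Nog went the other way, with means of 5.97 CPM in the WT pups and 10.4 CPM in the mutant pups. The log2 fold change there was 0.80 ± 0.15 (SE, adjusted p = 0.833 in edgeR). The median log2 fold change of the 35 genes in the whole resting class was 0.10 and that of the 9 ligand genes 0.04, against -0.01 over all genes.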

How the data were processed

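The deposited matrices held UMI counts per gene and cell, 1 matrix per pup, made by the authors with a BD Rhapsody analysis pipeline on mm10; its version and settings are not given in the sources used here. Totals per library were 117746735 to 183322632 UMIs. Cells with 200 to 6000 genes and at most 10% mitochondrial UMIs were kept. Clusters were made with leidenalg 0.10.2 from Pearson residuals that were computed and centred within each pup. Settings were 3000 variable genes without the ligand, pathway, Xist, Y-linked and mitochondrial genes, 50 components, 20 neighbours and resolution 1.5. Clusters were named from fixed marker lists. Among classes with a mean marker score within 0.5 of the highest, a cluster took the one with the most markers among its 10 leading genes. Clusters 0, 8, 19, 23, 25, 29, 30 and 33 thus bear a class that did not score highest. A cluster stayed unnamed where the first marker of the class was low, fewer than 3 markers were detected, markers of another class led or the mean doublet score was over 0.25. Limits of the naming, the minimum of 10 cells per pup and the doublet score limit were set after the data were seen. No doublets were removed, since the own threshold of Scrublet, run in scanpy 1.11.5, marked 0% of cells.

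UMIs were summed per pup and class and tested, mutant against WT, with edgeR 4.0.16 (TMM, filterByExpr, quasi-likelihood, Benjamini-Hochberg adjustment over all genes tested, classes with at least 50 cells in every pup). Differences of the effect between classes were tested with the pup as a block. Alternatives were DESeq2 1.42.0, limma 3.58.1, other normalisation, filters, cells, clusters and pups. Scripts were tested on simulated data. Shares of cells with a UMI were compared after thinning to 2000 UMIs. Intervals and shares cover counting error only where not given over pups. The pups were separate littermates, with 2 WT and 3 mutant pups setting the precision. All 10 ligand genes are named, with the 3 genes most like each over clusters, except that some genes are not reported here. The ligand genes, the pathway list and the tests were chosen with earlier results of these data known. Gene windows and sequences are from RefSeq tables of GRCm38.p6.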

Additional observations from a re-analysis of the deposited data

How the results depend on the processing

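No ligand gene passed the edgeR threshold in any of the 8 comparisons as reported, and the calls under alternatives were as follows. Counts over all genes under the same settings are in the next paragraph, and these calls are not read as particular to the ligand genes. DESeq2 called 2 of the 9 ligand genes tested in resting chondrocytes, Bmp3 and Bmp5, and 164 of all 15899 genes there (1.03%). It called 0 ligand genes in the other comparisons. Without a filter on low counts 1 was called in articular chondrocytes, Bmp7, where other genes were called as well. Leaving out each pup in turn gave 0 to 1 ligand genes in resting chondrocytes, the 1 being Bmp3 without mutant pup 5. The direction turned for Bmp7 in resting chondrocytes with cluster 23 left out (0.39), an alternative chosen after seeing the data, and for Bmp3 in proliferating and prehypertrophic chondrocytes at resolution 0.8 (0.36); the cause of the latter was not tested. Of 143 values of the 9 named effects under alternatives these 2 had the other sign, and of all 1071 values of ligand genes 133 did.

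Over all genes, DESeq2 called 48 in all cells, 164 in resting, 1 in articular, 5 in proliferating and prehypertrophic, 0 in Tgfbi-positive and 2 in hypertrophic chondrocytes, 3 in perichondrial and 8 in tendon or ligament cells. Without the filter on low counts edgeR called 65 in resting, 59 in articular, 14 in proliferating and prehypertrophic, 29 in Tgfbi-positive and 16 in hypertrophic chondrocytes, 20 in perichondrial and 10 in tendon or ligament cells. RLE normalisation gave 1 in resting chondrocytes. Without mutant pups 3 and 4 there were 4 in resting and 1 in proliferating and prehypertrophic chondrocytes. Leaving out each pup in turn gave 0 to 6 in all cells, 0 to 13 in resting, 0 to 5 in articular, 0 to 10 in proliferating and prehypertrophic, 0 to 5 in Tgfbi-positive and 0 to 11 in hypertrophic chondrocytes, 0 to 7 in perichondrial and 0 to 5 in tendon or ligament cells. The cause was not tested. A group left with 1 pup was assumed to vary like the other.

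The highest named class was the same for 8 of 10 ligand genes at resolution 0.8 (not Gdf6 and Gdf10), for 9 with another clustering seed (not Gdf10) and for 9 to 10 when each pup was left out, Bmp5 then being highest in pericytes without WT pup 2 and Gdf6 in perichondrial cells without mutant pup 3. Removing the 5% of cells with the highest Scrublet scores, chosen after seeing the data, and using thinned shares changed none of the 10. The planned removal of cells called by Scrublet was not run, since it marked none. Hypertrophic chondrocytes had under 50 cells in a pup at resolutions 0.8 and 2.5, with the other seed and with mitochondrial shares up to 5%, and gave no value there. No paired analysis was possible because replicate numbers of the pups were given in accession order and do not pair WT with mutant pups. With 2 WT pups, depth moved with the label and cannot be told apart from the genotype. Sex moved with it in part, since mutant pup 5 was Ddx3y-positive like both WT pups.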
